A study of Ovis aries with 5 samples.

Results

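Probes for 6 genes of T cells and natural killer (NK) cells were followed in sorted dendritic cells (DC) from sheep lymph. The genes were CD3D and CD247, which encode chains of the T cell receptor complex, the lymphocyte surface receptor CD5, the transcription factors GATA3 and TBX21, and the cytotoxic granule protein GNLY. Every probe on the array whose name belongs to one of these genes was taken, which gave 14 probes among 15008 distinct probes. The array names CD5, GATA3 and GNLY as such, CD247 by its older name CD3Z and TBX21 as T-BET, and the CD3D probes were matched through the RefSeq gene ID in their name. The 6 genes are among 826 that could be named. The rule for probes used names alone, but the genes themselves were picked with earlier results of these data known. The 14 probes passed the filter for a test, which required a Cy3 signal well above background on at least 2 of the 5 arrays.

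The study sorted lymph DC into CD1b+CD26+ and CD1b+CD26- cells and compared each with total enriched lymph DC. CD1b is a lipid antigen-presenting molecule and CD26 a surface protease that is also found on lymphocytes. Both subsets came from sheep 10081 and sheep 30066, with 1 array per subset and sheep. Each subset was labelled with Cy3 and hybridised against 1 common Cy5 reference, and a further array, the self-hybridisation, carried the reference in both dyes and stands here for total DC. According to the sample labels that reference was total enriched lymph DC of other sheep, so neither sheep has a total DC array of its own, whereas the labelling protocol names RNA from a culture of LP-1cl1 cells. No dye swap was made. All arrays shared 1 slide, with the sheep in different rows and the self-hybridisation in the row of sheep 30066. The sheep and its row on the slide thus cannot be told apart. Likeness of sheep 30066 to the self-hybridisation cannot be told apart from their shared row either. No treatment is named in the labels, and no age, purity of the sort or number of cells.

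The antigen receptor of a T cell signals through the CD3 chains and through the zeta chain encoded by CD247. NK cells lack the antigen receptor but use the zeta chain with some of their activating receptors. GATA3 and TBX21 direct the opposing programmes of helper T cells, and cytotoxic T cells and NK cells store granulysin with perforin in their granules. Afferent lymph carries T cells beside DC, and CD5, GATA3 and the zeta chain have also been described outside the T cell lineage, CD5 on some DC and B cells.

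The array holds each gene as a pair of overlapping probes of 60 bases, and GNLY as 2 pairs. The sequences are given because they show how far 2 probes of a gene are separate measurements. The stretches below are the first 30 bases that both probes of a pair hold, 5′ to 3′ as deposited, and the capitals mark these shared bases.
CD3D: TCTTTAGTACCCATTTCCCTGTATAGAAGG
CD247: TGTAACATTTGGTCATACCCAGTTCCAAAC
CD5: GGTGGGAGGGAGGGCTGATTTCTCTCATGT
GATA3: AAGCAACCTGATGTTGTGGCCACTCGGACG
TBX21: AATTGAGCAGATGATGTGAAAAGAAAAGGA
GNLY, sequence tag pair: ATGTCCTCCAGACTTTTTATTATCTTCCGA
GNLY, mRNA pair: TATCTGTGTGGACATCAAGGTCTGCAAAAG
The shared run is 30 bases long for CD3D and for the first GNLY pair, where it stands at the start of one probe and at the end of the other. It is 40 bases long for CD247, 57 for TBX21, 58 for GATA3, and 59 for CD5 and for the second GNLY pair, so that these last pairs are shifted against each other by only 1 to 3 bases. Probes of a pair are thus not independent. The 2 pairs of GNLY share no run, the first having been designed on an expressed sequence tag and the second on the mRNA record. The TBX21 pair was designed on a sequence tag that the array names T-BET. No probe of any other gene on the array shared 20 bases or more with a member probe.

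All values below are log2 ratios of Cy3 over Cy5, in short the ratio of the sample to the total DC reference, unless a fluorescence signal is named. Median Cy3 signals of the arrays were 204.3 to 307.1 units over a background of 36.5 to 39, and 81.1% to 89.5% of probes were well above background. Over the tested probes the log2 ratio of the subset arrays had an SD of 1.18 to 1.42, and that of the self-hybridisation 0.29. DC genes differed in signal. CD40, a receptor for T cell help, gave Cy3 signals of 15288 to 28951 and the costimulatory ligand CD86 1540 to 5438. CD1 gave 1442.5 to 7626.5 and IL12B 272.9 to 7967.8. CD80 gave 71.9 to 402.6, FCER1A 61.8 to 536.7 and ITGAM 47.3 to 137.9. Of the 6 DC genes tested, 3 lay above the self-hybridisation on all 4 subset arrays, beside 23.5% of all probes. CD86 and FCER1A lay below it on all 4, beside 26.9%. The probe for CD1B, the sorting marker, was well above background on only 1 of 5 arrays and cannot serve as a check. With so few arrays, precision is limited by their number throughout.

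**Figure D1:**
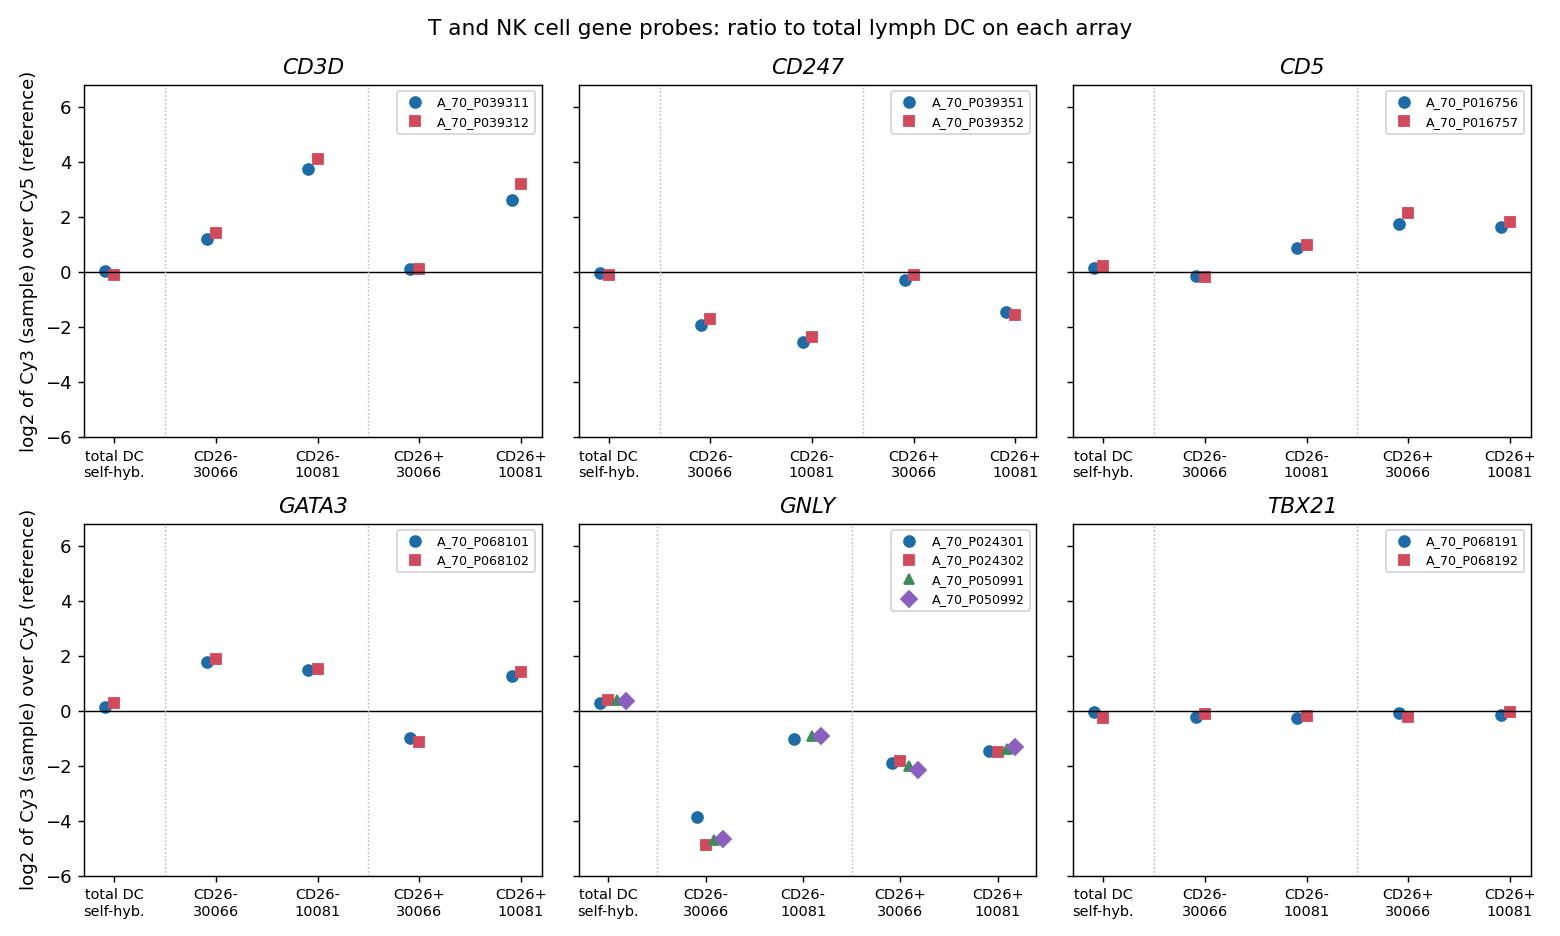
Log2 ratio of Cy3 (sample) over Cy5 (total DC reference) of each of the 14 probes on each of the 5 arrays, 1 panel per gene and 1 symbol per probe; labels on the horizontal axis give the subset and the sheep. CD3D is highest on the arrays of sheep 10081, the GNLY probes are lowest on the CD26- array of sheep 30066, and the TBX21 points stay within 0.26 of 0.

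CD3D, the delta chain of CD3, was higher in the cells of sheep 10081 than in those of sheep 30066 in both subsets, and within each sheep its values were higher in CD26- than in CD26+ cells. The order of the subsets in sheep 10081 turned when no spot was left out of the background model, at 1.93 and 2.55 in CD26- against 2.61 and 3.18 in CD26+ cells. These are values of single arrays, and no comparison passed the test. On the CD26- arrays probe A_70_P039311 stood at 1.21 in sheep 30066 and at 3.73 in sheep 10081. On the CD26+ arrays it stood at 0.10 in sheep 30066 and at 2.61 in sheep 10081, and on the self-hybridisation at 0.04. Both arrays of sheep 10081 thus lay above both arrays of sheep 30066, while the subsets overlapped. The second probe, A_70_P039312, gave 1.41 and 4.11 for CD26- cells of sheep 30066 and sheep 10081. For CD26+ cells it gave 0.10 and 3.18, and -0.10 on the self-hybridisation. The order of the arrays was the same for both probes.

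The raw signals of CD3D show how dim it was in the reference. The Cy3 signal of A_70_P039312 was 60.1 units on the self-hybridisation and 64.7 on the CD26+ array of sheep 30066, where the local background is near 38. It was 196 units in CD26- cells of sheep 30066, 673 in CD26+ cells and 1453 in CD26- cells of sheep 10081. In total DC neither CD3D probe was well above background in Cy3, so a ratio of a subset to total DC is uncertain and depends on the background model. The fold used here sets the mean signal of the subset arrays against the probe's own signal on the self-hybridisation. The lowest signal well above background would have replaced that signal if higher, which in the reported background model it was not. These Cy3 signals came from the loess-normalised ratios and from the mean log intensity of both dyes, quantile-normalised between arrays. The fold sets Cy3 against Cy3, and it is a measured ratio, not a lower bound. By this fold CD26- cells exceeded total DC in CD3D 6.36-fold by A_70_P039312 and 5.16-fold by A_70_P039311. The fitted log2 differences, a separate measure, were 2.87 (limma, adjusted p = 0.658) and 2.43 (adjusted p = 0.669). With no spot left out of the background model the folds were 3.40 and 2.82, and the fitted log2 differences were 1.37 and 1. CD26+ cells gave 2.48-fold and 2.21-fold by the same probes, and 2.09-fold and 1.89-fold with no spot left out. Their fitted log2 differences from total DC were 1.75 and 1.31, with limma adjusted p of 0.775 and 0.813. Taken array by array for A_70_P039312, CD26- and CD26+ cells of sheep 10081 gave 16.1-fold and 7.21-fold, and CD26- cells of sheep 30066 gave 2.51-fold. With no spot left out these were 8.36-fold, 4.97-fold and 1.38-fold, and the log2 ratio of CD26- cells of sheep 30066 was then 0.12. CD26+ cells of sheep 30066 lay near total DC, at 0.855-fold by A_70_P039312 and 0.978-fold by A_70_P039311. The excess of the CD26+ group over total DC thus rests on sheep 10081. In such sorted bulk samples more cells of a type and more RNA per cell cannot be told apart.

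**Figure D2:**
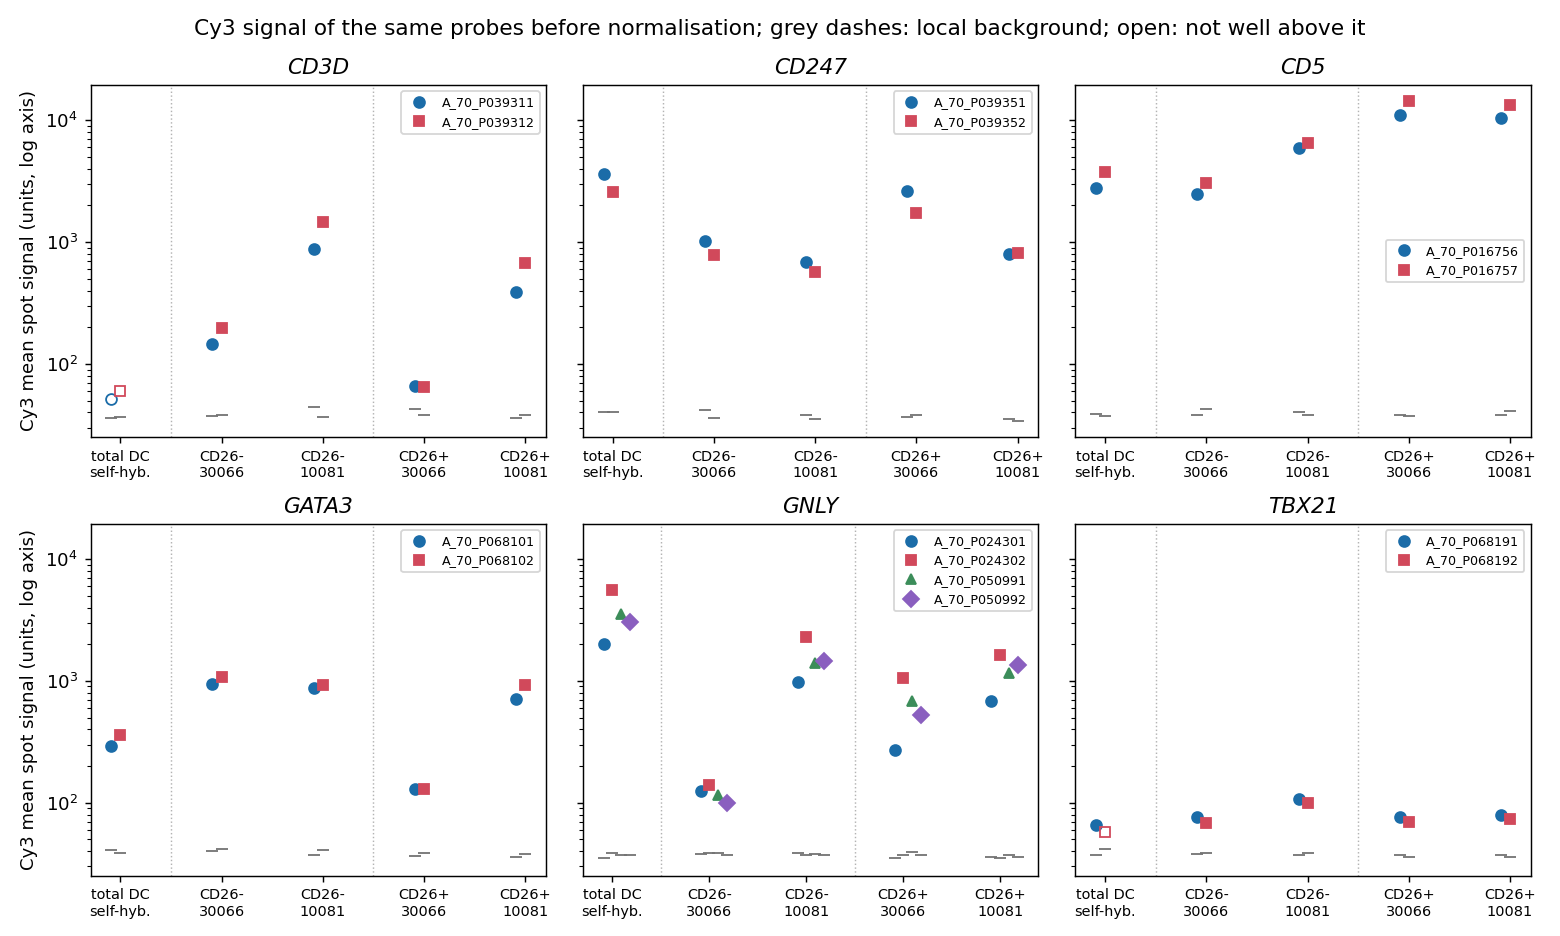
Mean Cy3 spot signal before normalisation (arbitrary units, log axis) of each probe on each array, with grey dashes for the local background and open symbols where the spot was not well above it. CD3D in total DC and TBX21 on all arrays lie close to the background, while CD5, CD247 and GNLY in total DC are bright. The P024302 point for CD26- cells of sheep 10081 is the spot that the scanner marked as an outlier and that the ratios leave out.

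The difference of CD3D between the sheep was 2.52 (SE 0.30) for A_70_P039311 and 2.89 (SE 0.31) for A_70_P039312, sheep 10081 minus sheep 30066, and 1.67 and 1.91 with scaling between arrays. It was 2.51 within CD26+ cells and 2.53 within CD26- cells for the first probe, and 3.08 and 2.70 for the second. The fit across all tested probes did not call it (limma with Benjamini-Hochberg adjustment, adjusted p = 0.335 for both probes, unadjusted p = 0.00245 and 0.00191). No probe on the array was called in this comparison, so percent called was 0, and 1761 probes had an unadjusted p under 0.05, 8.76% of those tested being higher and 4.52% lower in sheep 10081. Among the members these were the 2 CD3D probes. At least 2-fold higher in sheep 10081 in both subsets were 6.38% of the 12934 probes with a value on all 4 subset arrays, and of the 13 member probes with such values these were both CD3D probes. No member was at least 2-fold lower in both subsets, against 2.78% of probes. Between the subsets CD3D differed less than between the sheep. CD26+ minus CD26- was -1.11 in sheep 30066 and -1.12 in sheep 10081 for A_70_P039311 (SE 1.25 without regard to the sheep, adjusted p = 1), and -1.31 and -0.93 for A_70_P039312 (SE 1.43, adjusted p = 1). With the sheep as a block the SE was 0.295 and 0.313 at an adjusted p of 0.586. A_70_P039311 was the member probe that was at least 2-fold lower in CD26+ cells within each sheep, beside 2.98% of probes. The direction turned, to 0.30 and 0.26, when no spot was left out of the background model.

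CD247, the zeta chain, had lower values in CD26- cells of both sheep than in total DC, and CD26+ cells stood between these. Probe A_70_P039351 gave -1.92 in CD26- cells of sheep 30066 and -2.53 in those of sheep 10081. In CD26+ cells it gave -0.29 and -1.45, and -0.03 on the self-hybridisation. Probe A_70_P039352 gave -1.70 and -2.38 in CD26- cells, -0.13 and -1.56 in CD26+ cells, and -0.10 on the self-hybridisation, in the same order of sheep. The subset arrays did not overlap, with both CD26- arrays below both CD26+ arrays for both probes, and the CD26+ array of sheep 30066 lay close to the reference. Both dyes measured CD247 well above background on all 5 arrays. Its Cy3 signal was 3596 units on the self-hybridisation and 694 in CD26- cells of sheep 10081 for A_70_P039351.

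The mean of CD247 over the 2 CD26- arrays was -2.23 ± 0.43 (SD, n = 2) and over the CD26+ arrays -0.87 ± 0.82 (SD, n = 2) for A_70_P039351. CD26- minus total DC was -2.20 (SE 0.68, limma adjusted p = 0.418) for this probe and -1.94 (SE 0.77, adjusted p = 0.5) for A_70_P039352. CD26+ minus total DC was smaller, at -0.84 (SE 0.68) and -0.75 (SE 0.77), with adjusted p of 0.708 and 0.783, and -0.54 and -0.32 with scaling between arrays. CD26+ minus CD26- was 1.35 (SE 0.55, adjusted p = 0.886) and 1.20 (SE 0.63, adjusted p = 0.936), higher in 2 of 2 sheep by 1.63 and 1.08 and by 1.57 and 0.82. None of these passed the test. A_70_P039351 of CD247 was the member probe that stood at least 2-fold above CD26- cells in CD26+ cells of each sheep, against 2.42% of probes on the array. Leaving out the CD26+ array of sheep 10081 or of sheep 30066 moved CD26+ minus total DC over a range of -1.46 to -0.03 by A_70_P039352.

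Other chains of the receptor complex did not follow one pattern across the arrays. The CD3E, CD3D and CD3 gamma genes are neighbours in the RefSeq gene table of sheep (assembly ARS-UI_Ramb_v3.0), and CD3 gamma is here called CD3G. CD3E, by probe A_70_P039467, stood at 1.23 and 0.96 in CD26- and CD26+ cells of sheep 30066, while sheep 10081 gave 1.43 and 2.39 and the self-hybridisation 0.50. CD3G had ratios of -0.03 and -0.01 for sheep 30066, of 0.23 and 1.31 for sheep 10081, and of -0.26 on the self-hybridisation. The T cell receptor alpha chain probe was above total DC on all 4 subset arrays, at 1.49 and 1.93 in sheep 30066 and 2.09 and 2.45 in sheep 10081, against 0.27. The beta chain probe was well above background on 3 of 5 arrays, and its values were -2.04 and -1.76 in sheep 30066, -1.86 and 0.19 in sheep 10081 and -0.27 on the self-hybridisation. CD3D, CD3E and CD3G were thus each highest in a cell sample of sheep 10081, in CD26+ cells for CD3E and CD3G, and for CD3D in CD26- cells or, with no spot left out of the background model, in CD26+ cells. CD247 was below the reference on the arrays where CD3D was above it. Each of these chains has its own probe and the values are differences from the reference, not levels that can be set against each other.

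**Figure D3:**
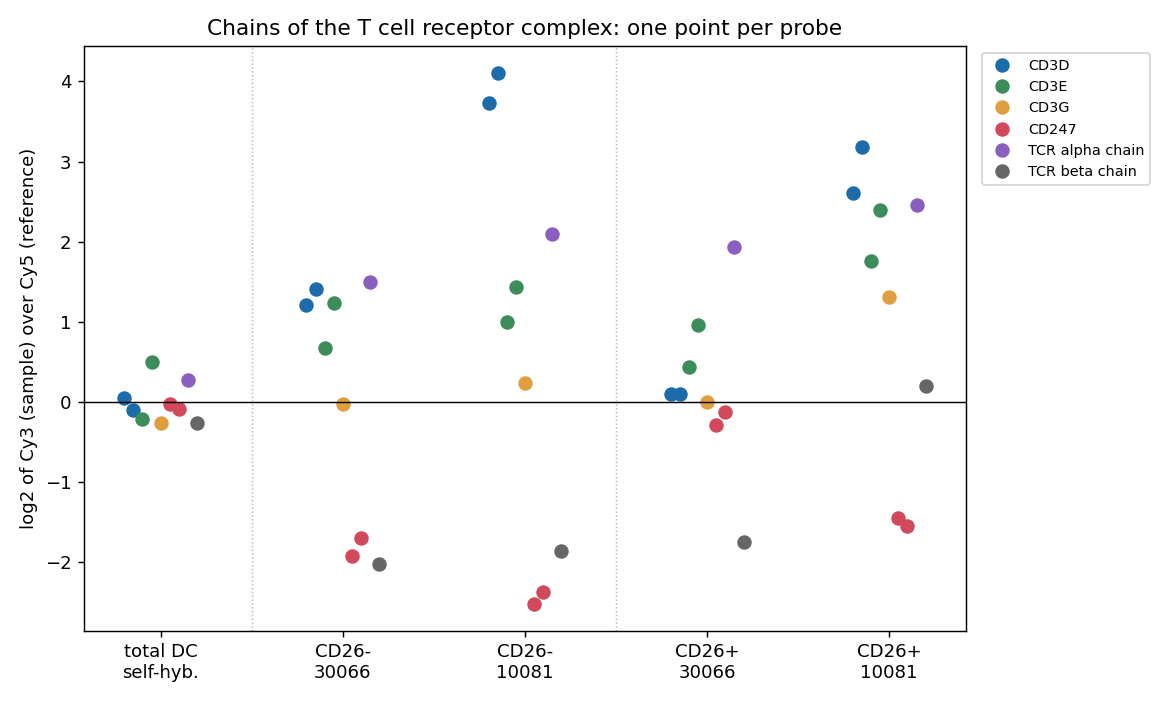
Log2 ratio of Cy3 (sample) over Cy5 (total DC reference) for every probe of the CD3 chains, CD247 and the T cell receptor alpha and beta chains on the 5 arrays, 1 point per probe and 1 colour per gene. CD3D, CD3E and the alpha chain lie above 0 and CD247 below 0 on every subset array, though CD3D is only at 0.10 in CD26+ cells of sheep 30066. On the arrays of sheep 10081 CD247 lies below -1.45.

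CD5, a receptor of T cells that dampens antigen receptor signals, had higher values in CD26+ than in CD26- cells of both sheep, with no test passed. A_70_P016756 gave 1.74 and 1.64 in CD26+ cells of sheep 30066 and sheep 10081. In CD26- cells it gave -0.13 and 0.88, against 0.16 on the self-hybridisation. A_70_P016757 gave 2.13 and 1.82 in CD26+ cells, -0.18 and 0.99 in CD26- cells, and 0.21 on the self-hybridisation. Both CD26+ arrays lay above both CD26- arrays, and the CD26- array of sheep 30066 fell below total DC. CD5 was bright, with Cy3 signals of 2498 to 10973 units for the first probe and 3082 to 14429 for the second, and in total DC it was well above background in both dyes.

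CD26+ minus CD26- was 1.31 (SE 0.48) for A_70_P016756 and 1.57 (SE 0.53) for A_70_P016757, with unadjusted p of 0.0467 and 0.0373 and adjusted p of 0.88 and 0.86 by limma. The difference was 1.87 and 2.31 in sheep 30066 and 0.76 and 0.83 in sheep 10081. Against total DC CD5 stood at 1.53 (SE 0.58, adjusted p = 0.446) and 1.76 (SE 0.65, adjusted p = 0.438) in CD26+ cells, and at 0.89 and 0.96 with scaling between arrays. In CD26- cells the difference was 0.22 and 0.19, turned negative without the CD26- array of sheep 10081 (-0.29 and -0.40) and was smaller than its SE of 0.58 and 0.65. The order of the group means was CD26+ at 1.69 ± 0.07 (SD, n = 2), CD26- at 0.38 ± 0.71 (SD, n = 2) and total DC at 0.16 (1 array) for A_70_P016756. Total DC has no spread of its own, and CD26- cells differed from it by less than the SE given above.

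GATA3, the transcription factor of type 2 helper T cells and of innate lymphocytes, was low on 1 subset array and high on the other 3. Probe A_70_P068101 gave 1.77 and 1.49 in CD26- cells of sheep 30066 and sheep 10081. In CD26+ cells it gave -1.01 and 1.26, and on the self-hybridisation 0.14. Probe A_70_P068102 gave 1.89 and 1.53 in CD26- cells, -1.14 and 1.41 in CD26+ cells and 0.27 on the self-hybridisation. The low array was that of CD26+ cells of sheep 30066, with a Cy3 signal of 130 units by A_70_P068101 against 291 in total DC and 714 to 946 on the other subset arrays. Both CD26- arrays lay above both CD26+ arrays, those of sheep 10081 at 1.49 and 1.26. With no spot left out of the background model the subsets overlapped, since sheep 10081 then gave 1.09 in CD26- and 1.26 in CD26+ cells and sheep 30066 0.72 and -0.56.

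The subset difference of GATA3 was therefore mostly that of sheep 30066. CD26+ minus CD26- was -2.78 in sheep 30066 and -0.23 in sheep 10081 by A_70_P068101, and -3.02 and -0.12 by A_70_P068102. The fit gave -1.50 (SE 0.84, limma adjusted p = 0.946) and -1.57 (SE 0.93, adjusted p = 0.958), and -0.55 and -0.59 with no spot left out. CD26- minus total DC was 1.49 (SE 1.03) and 1.43 (SE 1.14), with adjusted p of 0.703 and 0.757, and 0.81 and 0.78 with no spot left out. CD26+ minus total DC was -0.01 (SE 1.03) and -0.14 (SE 1.14), and was 1.13 and 1.14 without the CD26+ array of sheep 30066. The sheep differed by 2.27 and 2.55 in CD26+ cells and by -0.28 and -0.36 in CD26- cells, sheep 10081 minus sheep 30066.

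TBX21, also known as T-bet, the transcription factor of type 1 helper T cells and NK cells, was dim and near the reference on every array. A_70_P068191 gave -0.24 and -0.26 in CD26- cells, -0.07 and -0.15 in CD26+ cells, and -0.04 on the self-hybridisation, sheep 30066 first. A_70_P068192 gave -0.14 and -0.17 in CD26- cells, -0.22 and -0.05 in CD26+ cells, and -0.26 on the self-hybridisation. Cy3 signals were 65.8 to 108 units and 57.6 to 98.8 units, and A_70_P068192 was not well above background in total DC. CD26+ minus CD26- was 0.14 (SE 0.33) and 0.02 (SE 0.34), both with an adjusted p of 1. At such dim signals no difference in TBX21 was detected, and the sign of the fitted difference turned with the processing.

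GNLY, which encodes granulysin, had lower values in both subsets than in total DC, with no test passed, and its lowest in CD26- cells of sheep 30066. The mRNA probe A_70_P050991 stood at -4.69 in CD26- cells of sheep 30066 and at -0.93 in those of sheep 10081. In CD26+ cells it stood at -2.02 and -1.39, against 0.40 on the self-hybridisation. Its partner A_70_P050992 gave -4.68 and -0.91 in CD26- cells, -2.17 and -1.33 in CD26+ cells and 0.36 on the self-hybridisation. The 4 subset arrays were all below the self-hybridisation, and the subsets overlapped because the CD26- arrays were the lowest and the highest of the 4. The depth of the lowest value depends on the background model: with no spot left out, CD26- cells of sheep 30066 gave -2.21 by A_70_P050991 and -2.03 by A_70_P050992, beside -1.85 and -1.96 in its CD26+ cells.

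The sequence tag probes of GNLY gave the same order of arrays. A_70_P024301 stood at -3.87 and -1.01 in CD26- cells of sheep 30066 and sheep 10081, at -1.89 and -1.45 in CD26+ cells and at 0.28 on the self-hybridisation. A_70_P024302 stood at -4.89 in CD26- cells of sheep 30066, at -1.82 and -1.48 in CD26+ cells and at 0.39 on the self-hybridisation. Its spot for CD26- cells of sheep 10081 was marked as an outlier by the scanner and left out; kept, it gave -0.72. With no spot left out of the background model A_70_P024301 gave -1.53 in both subsets of sheep 30066. The largest gap between the 4 probes was 1.02, on the CD26- array of sheep 30066.

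In signal terms GNLY was bright in total DC and dim in 1 sample. A_70_P050991 had a Cy3 signal of 3563 units on the self-hybridisation, 687 and 1170 in CD26+ cells, 1416 in CD26- cells of sheep 10081 and 116 in CD26- cells of sheep 30066. On this last array between 0.01% and 0.14% of the tested probes had a lower ratio than the GNLY probes. The 3 GNLY probes with a value on all 5 arrays were at least 2-fold below the self-hybridisation on all 4 subset arrays, which holds for 3.79% of 12875 probes. No other member probe did so, and none was at least 2-fold above the self-hybridisation on all 4 (5.66% of probes).

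Neither comparison of a subset with total DC called GNLY. CD26- minus total DC was -2.72 (SE 1.26, limma adjusted p = 0.569) for A_70_P024301, -3.21 (SE 1.63, adjusted p = 0.597) for A_70_P050991 and -3.16 (SE 1.65, adjusted p = 0.605) for A_70_P050992. Without the CD26- array of sheep 30066 these became -1.29, -1.33 and -1.28, and with no spot left out of the background model -1.51, -1.95 and -1.80. CD26+ minus total DC was -1.94 (SE 1.26) for A_70_P024301, -2.11 (SE 1.63) for A_70_P050991 and -2.12 (SE 1.65) for A_70_P050992, with adjusted p between 0.635 and 0.699. For A_70_P024302, CD26+ minus total DC was -2.04 (SE 0.49, adjusted p = 0.371).

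Between the subsets the sheep went opposite ways for GNLY. CD26+ minus CD26- was 2.67 in sheep 30066 and -0.46 in sheep 10081 by A_70_P050991, 2.51 and -0.42 by A_70_P050992, and 1.99 and -0.43 by A_70_P024301. The fit gave 1.11 (SE 1.33), 1.04 (SE 1.35) and 0.78 (SE 1.03), all at an adjusted p of 1 by limma. With no spot left out of the background model the subsets of sheep 30066 lay close together. Its CD26- and CD26+ cells then gave -2.21 and -1.85 by A_70_P050991 and -2.03 and -1.96 by A_70_P050992. By A_70_P024301 both gave -1.53, and the fit gave -0.06, -0.19 and -0.23 in this order of probes. Probe A_70_P024302 gave 3.24 (SE 0.49, unadjusted p = 0.0049, adjusted p = 0.774), but its CD26- value rests on the array of sheep 30066 alone, as does its -5.28 against total DC (SE 0.57, adjusted p = 0.35). With the outlier spot kept the same probe gave 1.16 between the subsets and -3.20 against total DC, beside the values of the other 3 probes. When instead no spot was left out of the background model, A_70_P024302 gave 1.03 and -3.02. Sheep 10081 minus sheep 30066 was 2.19 (SE 0.92, adjusted p = 0.426) for A_70_P050991, with 3.76 in CD26- and 0.63 in CD26+ cells, and 0.88 with no spot left out.

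**Figure D4:**
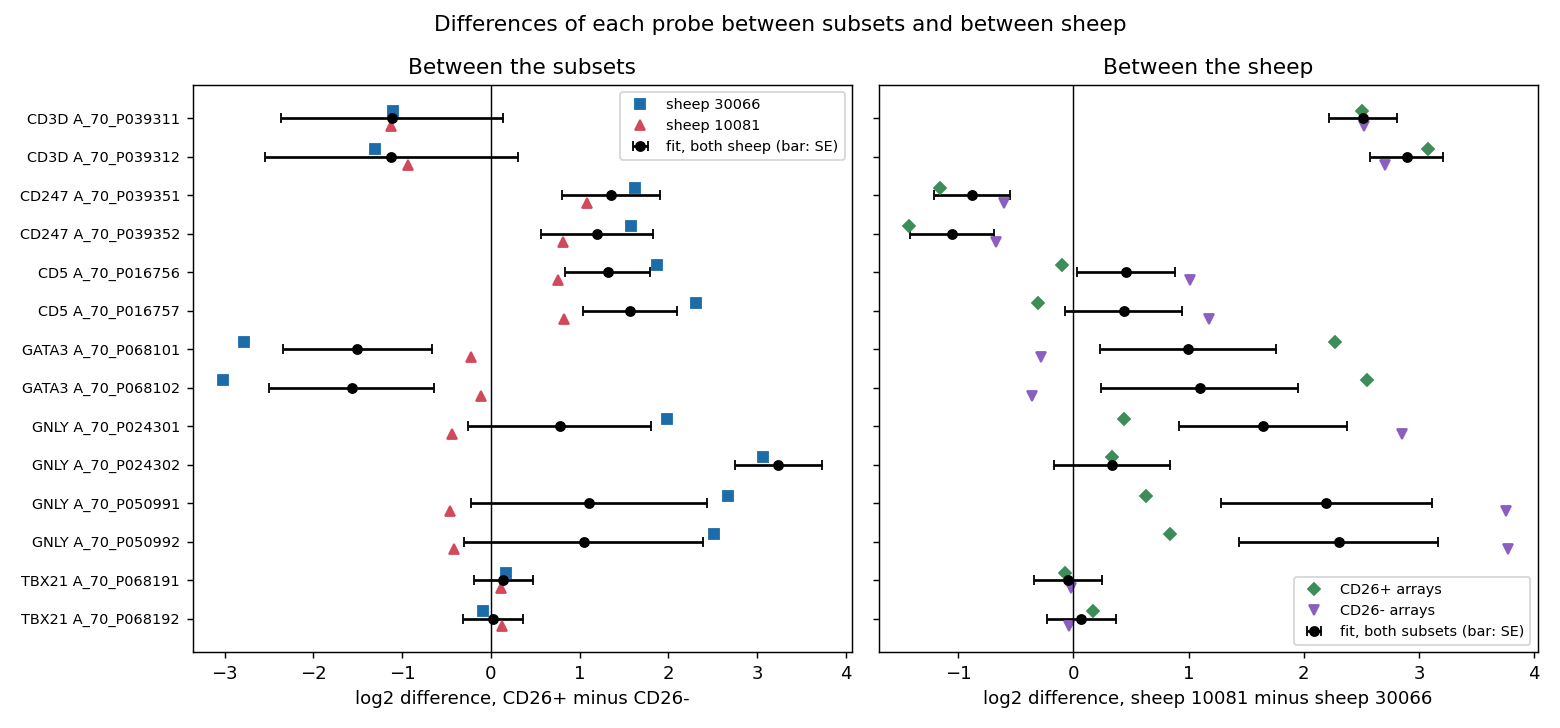
Log2 difference of each member probe between the subsets (left, CD26+ minus CD26-, by sheep) and between the sheep (right, sheep 10081 minus sheep 30066, by subset), with the fitted difference in black and its standard error as a bar. The left bars come from the fit without regard to the sheep and the right bars from the fit with the sheep as a term. Their lengths cannot be compared between panels. With the sheep as a block the subset SE of CD3D was 0.295 and 0.313. Both CD3D probes stand at -0.93 to -1.31 between the subsets (0.30 and 0.26 with no spot left out of the background model) and at 2.51 to 3.08 between the sheep, and GNLY differs in direction between the sheep where both are measured. With no spot left out the fitted subset difference of GNLY was -0.23, -0.06 and -0.19 for A_70_P024301, A_70_P050991 and A_70_P050992.

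Counted over the members, no probe passed the limma test at an adjusted p under 0.05 in any of the 4 comparisons, and percent called over all tested probes was 0 in each. The smallest adjusted p of any probe was 0.765 for CD26+ minus CD26-, 0.305 for CD26+ and 0.35 for CD26- minus total DC, and 0.335 between the sheep. At an unadjusted p under 0.05, CD26+ minus CD26- held 748 probes of the array and 3 of 14 member probes, the CD5 pair and A_70_P024302, where 2.39% of all tested probes were higher and 3.25% lower. For CD26+ minus total DC these were 1493 probes, 6.07% higher and 5.23% lower, and 2 members, A_70_P016757 of CD5 higher and A_70_P024302 of GNLY lower. For CD26- minus total DC these were 1400 probes, 6.28% higher and 4.32% lower, and 2 members, A_70_P039351 of CD247 and A_70_P024302 of GNLY, both lower. With the sheep as a block 7 of 14 member probes had an unadjusted p under 0.05 between the subsets, beside 1122 of the 13264 tested probes. For CD26- minus total DC these were 5 member probes, beside 2090 of the tested probes. The counts over the array thus rose too, from 748 and 1400. Again no member probe had an adjusted p under 0.05. The median over the members was 0.91 for CD26+ minus CD26-, against -0.01 over all tested probes, but 0.10 with no spot left out of the background model and -0.65 without the CD26- array of sheep 30066.

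By direction alone, 5 of 13 member probes had higher values in CD26+ cells of both sheep, both probes of CD247 and of CD5 and 1 of TBX21, beside 27.5% of all probes. Lower in both sheep were 4 of 13, the pairs of CD3D and GATA3, beside 28.6%. Arrays of the subsets did not overlap, with CD26+ higher, for the same 5 probes, beside 14.9% of all probes, and with CD26+ lower for the GATA3 pair, beside 16.7%. These counts hold for the reported background model, since CD3D, GATA3 and TBX21 change order with no spot left out of it. The arrays of sheep 10081 lay above those of sheep 30066 for 5 of 13, both CD3D probes and 3 of GNLY, beside 23% of all probes. CD3D, CD247 and GNLY thus had a different order of arrays each. The 4 subset arrays were above the self-hybridisation for 3 member probes of 13, the CD3D pair and 1 of TBX21, beside 23.5% of all probes. They were below it for 6 member probes, 3 of GNLY, the CD247 pair and 1 of TBX21, beside 26.9%.

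Other genes of lymphocytes were few on the array and mostly dim. Of 33 further T cell genes 10 had a probe and 8 were tested. Both sheep agreed on 5 of these. The higher value was in CD26+ cells for 3, beside 27.5% of all probes, and in CD26- cells for 2, beside 28.6%. The median difference of the 8 tested genes was 0.09, and none was called. CD4, the coreceptor of helper T cells, gave Cy3 signals of 51.4 to 98.6, and the T cell cytokine IFNG gave 57.8 to 74.7. IL2 and IL4 were not well above background on any array. CD40LG, a ligand of activated helper T cells, stood at 1.76 in CD26- cells of sheep 10081 and between -0.11 and -0.04 on the others. CTLA4, an inhibitory receptor of T cells, gave 0.40 and 0.61 for sheep 10081 and -0.21 and -0.23 for sheep 30066, CD26- first. The sheep difference over the 8 tested T cell genes had a median of 0.57, against 0.01 over all tested probes. The part of T cells in the CD3D values was not tested.

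Of 32 NK cell and cytotoxic genes 3 had a probe. All 3 had lower values in CD26+ than in CD26- cells of both sheep, beside 28.6% of all probes. Their median difference was -0.65, with no call. XCL1, a chemokine of NK and CD8 T cells, gave -0.03 and -0.20 for CD26- and CD26+ cells of sheep 30066, and -0.63 and -0.73 for sheep 10081, against 0.17 on the self-hybridisation. It thus lay below total DC on all 4 subset arrays, as GNLY did, but was lowest in sheep 10081, where GNLY was not. TYROBP and FCER1G, adaptors that NK cells share with myeloid cells, differed by -1.12 and -0.65 between the subsets. The part of NK cells in the GNLY values was not tested. CR2, the only B cell gene of 12 with a probe, gave Cy3 signals of 52.4 to 78.2. Of 27 DC genes 6 were tested, and 5 of these had higher values in CD26+ cells of each sheep (median difference 0.82). Of 14 monocyte and macrophage genes 3 were tested, and 2 of these had lower values there (median difference -0.79). Over all probes 27.5% were higher and 28.6% lower in CD26+ cells of both sheep.

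The named genes nearest to CD247, CD5, GATA3, GNLY and TBX21 across the arrays were found by the root mean square difference of the log2 ratios, over 676 candidate genes. H2AZ1 was nearest to both CD247 probes (0.167 and 0.235), followed by CALM2 (0.466 and 0.424). TRPC4AP (0.368) and IRF1 (0.455) were nearest to the probes of CD5, and M6PRBP1 (0.358) and DGAT1 (0.415) to those of GATA3. The nearest gene to GNLY was FGF10, at 0.875 to 1.21, for 3 probes and AGGF1, at 1.14 over 4 arrays, for A_70_P024302. Of these 5 genes GNLY thus had the most distant neighbours. The distance was not scaled for the size of the ratios, which were largest for GNLY, so it does not rank how unusual a pattern is. PAG11 (0.055) and PRKACA (0.082) were nearest to TBX21, whose ratios lay near 0. These likenesses rest on 5 arrays that share a reference.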

How the data were processed

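Sorted sheep lymph DC were measured on 5 Agilent 2-colour arrays. The deposited array files hold spot intensity, not normalised, and name Feature Extraction 9.5.3.1 as the scanner software, per the file headers. The deposited value table holds a log2 ratio of Cy3 over Cy5 that equals the scanner's processed ratio, so it is no independent alternative. Here mean signals were background-corrected with normexp (offset 50), leaving out of its fit any spot with a local background over 5 times the array median, then loess-normalised within arrays (limma 3.58.1, R 4.3.3). Control spots (536) had weight 0, spots the scanner marked as outliers (49 to 157 per array) were left out, and spots of a probe were averaged. Of 15008 probes, 13264 were tested because 2 or more arrays had them well above the Cy3 background; 1744 were dim and not tested.

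limma fitted 3 group means to the 5 arrays (2 residual and 2.36 prior degrees of freedom); the sheep comparison added the sheep as a term (1 and 2.25). P-values were adjusted by Benjamini-Hochberg over all tested probes, with calls under 0.05. The labels pair the subsets by animal, and both arrays of an animal deviated together (r = 0.33). The fit was tested on simulated data.

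Member genes and lists were chosen with earlier results of these data known, and the normexp setting after results had been seen. Every member probe is named; list genes are represented by their brightest probe, and at most 4 per list were to be named, those with the largest mean ratio. CTLA4, CD4, IL2, IL4, IFNG, CD40, CD1B, CD1, ITGAM and the T cell receptor chains were picked after values were seen. Alternatives were other background corrections, centring, scaling, filters, the sheep as a block, and single arrays left out; keeping outlier spots and an offset of 10 were added after seeing the data. Genome positions are not given because no genome was used. The genes nearest to CD3D are not reported here.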

Additional observations from a re-analysis of the deposited data

How the results depend on the processing

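The count of probes with an adjusted p under 0.05 remained 0 in all 104 recounts over the alternatives, for all probes and for member probes. At an unadjusted p under 0.05, CD26- minus total DC went from 1400 to 637 probes when no spot was left out of the background model and to 2485 with scaling between arrays, and CD26+ minus total DC from 1493 to 2714 with scaling and 2324 with the sheep as a replicate block. In the paired fit the CD26+ minus CD26- differences kept their values, apart from 3.07 for A_70_P024302, and no adjusted p fell under 0.575. Median centring shifted all probes by -0.26 and -0.23 against total DC.

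The background model fitted on all spots turned CD26+ minus CD26- to 0.30 and 0.26 for CD3D, to -0.23, -0.06 and -0.19 for GNLY (A_70_P024301, A_70_P050991 and A_70_P050992) and to -0.10 for both TBX21 probes. It turned CD26+ minus total DC to 0.26 and 0.19 for GATA3 and -0.02 for TBX21, and brought CD26- minus total DC to 0 for TBX21. With the scanner's processed signals TBX21 gave -0.01 between the subsets and 0 for CD26+ minus total DC. Median centring gave -0.23 (CD26+) and -0.25 (CD26-) minus total DC and 0.04 between the sheep for TBX21, and -0.03 and -0.07 for CD5 in CD26- minus total DC. Scaling gave 0.04 for TBX21 (CD26+ minus total DC) and -0.18 and -0.32 for CD5 (CD26- minus total DC). The cause of these changes was not tested.

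Leaving out 1 array at a time, CD26+ minus CD26- ran from -2.38 to 0.15 and -2.66 to 0.42 for CD3D, from -0.65 to 2.20, -0.77 to 2.99 and -0.84 to 2.93 for GNLY, and from -0.06 to 0.11 for TBX21. CD26+ minus total DC ran from -1.15 to 1.13 and -1.41 to 1.14 for GATA3, and CD26- minus total DC from -0.29 to 0.72 and -0.40 to 0.78 for CD5. The sheep difference of CD3D lay between 1.67 and 3.15 over the settings that kept its probes. A filter for probes well above background on all 5 arrays removed both CD3D probes and A_70_P068192, and with them the 2 member probes at an unadjusted p under 0.05 between the sheep. Dim signals, of CD3D in total DC and of TBX21, limit these values, as do 2 sheep, 1 array of total DC and the lack of a dye swap.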
